A study of Mus musculus with 4 samples.

Results

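The immediate early genes Fos, Jun, Junb, Atf3, Egr1, Nr4a1, Ier2, Btg2, Dusp1 and Zfp36 were examined in the adult mouse testis. The genes were taken by name, with each probe set (a group of short probes for a transcript) whose platform annotation names exactly 1 gene. All 10 genes were represented, by 15 of the 12488 probe sets of the array, which name 8252 genes singly. Testis RNA was measured on 4 Affymetrix mouse arrays, 2 from Tslc1+/+ and 2 from Tslc1-/- males, all of strain C57BL/6J and aged 16 weeks, with no treatment named. Tslc1, now called Cadm1, encodes an adhesion molecule of the immunoglobulin superfamily. The labels describe neither the targeted allele nor the number of animals, so p-values reflect array-to-array spread alone, possibly technical. Values are MAS5 signals on a linear scale, and changes are Tslc1-/- minus Tslc1+/+ in log2(signal + 50); the added 50 shrinks changes at low signal.

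Immediate early genes are transcribed within minutes of a stimulus such as a growth factor, calcium entry, cyclic AMP or stress, without new protein synthesis. Kinase cascades act on factors that are already bound at their promoters, such as CREB and serum response factor, and the short-lived messenger RNA is then removed quickly. Many of the products are transcription factors, among them Fos and Jun proteins that pair to form AP-1, while others, such as Dusp1 and Zfp36, shut the response down. Their level in a dissected tissue can therefore also reflect recent events in it. In testis, such genes are known to respond to pituitary hormones in Sertoli and Leydig cells. Because the arrays measured whole tissue, fewer cells of a type and less RNA per cell cannot be told apart.

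Upstream sequences were available in the RefSeq promoter table (GRCm38.p6) for 8 of the 10 genes, all but Egr1 and Ier2. The 250 bases before the start of Fos (chr12:85473640-85473889, plus strand), Dusp1 (chr17:26508473-26508722, minus strand), Btg2 (chr1:134079156-134079405, minus strand) and Atf3 (chr1:191183334-191183583, minus strand) are given because these genes had a probe set that read higher on the replicate 2 array in both genotypes. Those of Junb (chr8:84978749-84978998, minus strand), whose brighter probe set read lower on both, are given beside them. The other probe sets of Fos, Atf3 and Junb did not share these directions. Capitals mark TGACG, the core of the cyclic AMP response element bound by CREB and ATF proteins, on either strand (TGACG or CGTCA).
Fos: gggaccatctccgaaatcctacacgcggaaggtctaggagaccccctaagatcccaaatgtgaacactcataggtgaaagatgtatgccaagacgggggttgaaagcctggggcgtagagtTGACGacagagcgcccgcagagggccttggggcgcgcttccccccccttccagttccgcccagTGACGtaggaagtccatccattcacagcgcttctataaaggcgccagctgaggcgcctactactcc
Dusp1: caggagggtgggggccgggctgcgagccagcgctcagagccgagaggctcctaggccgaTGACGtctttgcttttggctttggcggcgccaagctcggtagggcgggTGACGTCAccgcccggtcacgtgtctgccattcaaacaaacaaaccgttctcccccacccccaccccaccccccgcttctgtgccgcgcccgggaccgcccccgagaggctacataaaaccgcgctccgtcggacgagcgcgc
Btg2: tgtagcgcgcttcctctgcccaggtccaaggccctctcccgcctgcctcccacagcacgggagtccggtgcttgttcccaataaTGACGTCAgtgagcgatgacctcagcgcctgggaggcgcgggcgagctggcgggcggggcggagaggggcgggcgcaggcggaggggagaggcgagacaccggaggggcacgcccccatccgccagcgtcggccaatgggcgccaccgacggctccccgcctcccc
Atf3: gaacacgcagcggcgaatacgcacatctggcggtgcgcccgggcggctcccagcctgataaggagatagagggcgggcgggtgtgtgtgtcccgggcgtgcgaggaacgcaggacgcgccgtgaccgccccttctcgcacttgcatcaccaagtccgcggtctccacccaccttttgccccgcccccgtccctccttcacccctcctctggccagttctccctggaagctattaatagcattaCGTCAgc
Junb: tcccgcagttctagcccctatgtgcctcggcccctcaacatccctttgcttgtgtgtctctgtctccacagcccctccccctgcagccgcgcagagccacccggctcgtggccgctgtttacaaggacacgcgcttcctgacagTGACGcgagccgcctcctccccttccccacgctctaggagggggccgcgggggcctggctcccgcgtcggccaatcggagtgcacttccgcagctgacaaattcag
The core was found in 6 of 8 member promoters (Fos, Junb, Atf3, Nr4a1, Btg2 and Dusp1) and in 17.8% of all 32851 upstream windows of the same length in that table. In Fos its matches begin 129 and 66 bases before the start, in Atf3 7 bases before it and in Junb 106 bases before it. The full palindrome TGACGTCA, which contains the core on both strands, was found in Btg2 and Dusp1 and in 1.55% of all windows. A CArG box, the site of serum response factor, was found in these 250 bases for Zfp36 alone among the 8 and in 1.47% of all windows. Sites further upstream were not searched. The AP-1 motif TGANTCA was in none of the 8 and in 6.75% of all windows. These matches are a description of the letters only, and their part in the array patterns was not tested.

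Fos and Jun, the founding partners of AP-1, were dim in both genotypes. The first Fos probe set read 27.9 and 243.4 in Tslc1+/+ mice and 25.6 and 183 in Tslc1-/-, with replicate 1 given before replicate 2 here and in the sentences that follow. Both replicate 1 arrays were low and both replicate 2 arrays were high, by 8.72-fold in Tslc1+/+ against 7.15-fold in Tslc1-/-, and the genotypes overlapped. The second Fos probe set read 52.4 and 22.8, then 26.2 and 33.3, and did not share that pattern. The Jun probe set read 68.3 and 191.5 in Tslc1+/+ mice and 131.6 and 103.8 in Tslc1-/-, so the Tslc1-/- arrays lay between the Tslc1+/+ arrays. These 3 probe sets had mean signals below 200, the level required for testing. In a fit of all probe sets without that filter, the first Fos probe set had a change of -0.19 (95% interval -1.98 to 1.60) and Jun one of -0.02 (95% interval -1.35 to 1.32). The data therefore place no narrow limit on a genotype difference in Fos.

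Junb, an AP-1 partner that can oppose Jun, read 573.1 and 437.1 in Tslc1+/+ against 542.6 and 411.8 in Tslc1-/- on its brighter probe set. The genotypes overlapped and the replicate 2 array was the lower in each. The change was -0.07 with a standard error of 0.33 (95% interval -0.80 to 0.65, limma, Benjamini-Hochberg adjusted p = 0.968). It turned positive without Tslc1+/+ replicate 1 (0.10) or Tslc1-/- replicate 2 (0.11). Its second probe set read 72 and 81, then 64 and 54, below the filter and not overlapping. Both Junb identifiers carry a suffix for possible cross-hybridisation.

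Atf3, a stress-induced member of the ATF/CREB family, was measured by 3 probe sets that differed from each other. On the first the signals were 287.7 and 366.7 in Tslc1+/+ mice and 295.9 and 366 in Tslc1-/-. The genotypes overlapped almost exactly on it, with a change of 0.02 (95% interval -0.93 to 0.97, limma, adjusted p = 0.994), which turned to -0.14 without Tslc1+/+ replicate 1 and to -0.12 without Tslc1-/- replicate 2. On the second the signals were 321.9 and 307 in Tslc1+/+ against 91 and 156.4 in Tslc1-/-. Both Tslc1-/- arrays were below both Tslc1+/+ arrays there, yet the change of -1.09 had a standard error of 0.66 and did not pass (95% interval -2.56 to 0.37, limma, adjusted p = 0.651). The third read between 28.7 and 37.1 on all arrays and was below the filter. All 3 identifiers carry a suffix for possible cross-hybridisation, so the lower reading on the second cannot be assigned to the Atf3 transcript as a whole.

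Egr1, a zinc finger transcription factor, read 522 and 525.9 in Tslc1+/+ mice and 739.3 and 495.1 in Tslc1-/-. The Tslc1+/+ arrays lay within the range of the Tslc1-/- arrays. The change was 0.19 (95% interval -0.48 to 0.86, limma, adjusted p = 0.877) and it was -0.074 without Tslc1-/- replicate 1, the array with the high reading. A second Egr1 probe set read between 11.1 and 38.6. Nr4a1, an orphan nuclear receptor that regulates steroidogenic genes in Leydig cells, read 517.1 and 871.4 in Tslc1+/+ against 742.1 and 606.8 in Tslc1-/-. Both Tslc1-/- readings of Nr4a1 fell between those of Tslc1+/+, the reverse of Egr1. The change was -0.0031 (95% interval -0.67 to 0.66, limma, adjusted p = 0.998), and it was 0.35 without Tslc1+/+ replicate 2 and 0.13 without Tslc1-/- replicate 2.

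Ier2, a nuclear protein of the early growth response, read 289.6 and 529.3 in Tslc1+/+ mice and 358 and 621.4 in Tslc1-/-. The replicate 2 array was higher in each genotype, by 1.83-fold and 1.74-fold, and the genotypes overlapped. The change was 0.24 with a standard error of 0.41 (95% interval -0.67 to 1.15, limma, adjusted p = 0.893), and it was -0.15 without Tslc1+/+ replicate 1 and -0.12 without Tslc1-/- replicate 2. Btg2, an antiproliferative cofactor of messenger RNA deadenylation, read 1500.8 and 2029.3 in Tslc1+/+ against 1345.5 and 1509.1 in Tslc1-/-. Its arrays overlapped by a small margin. The change was -0.28 with a standard error of 0.19 (95% interval -0.72 to 0.15, limma, adjusted p = 0.696), the narrowest interval among the tested member probe sets.

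The 2 feedback genes differed in how their arrays fell. Dusp1, a phosphatase that inactivates MAP kinases, read 675.4 and 905.2 in Tslc1+/+ mice and 649.2 and 829.2 in Tslc1-/-. The replicate 2 array was again the higher in each genotype and the genotypes overlapped. The change was -0.09 (95% interval -0.66 to 0.49, limma, adjusted p = 0.951), and it was 0.11 without Tslc1+/+ replicate 2 and 0.08 without Tslc1-/- replicate 1. Zfp36, or tristetraprolin, which binds AU-rich elements and promotes messenger RNA decay, read 158.1 and 160.9 in Tslc1+/+ against 363.1 and 282 in Tslc1-/-. Both Tslc1-/- arrays were above both Tslc1+/+ arrays, and the Tslc1+/+ pair nearly coincided. The change of 0.82 had a standard error of 0.58 and did not pass (95% interval -0.46 to 2.10, limma, adjusted p = 0.702). This probe set also carries a cross-hybridisation suffix.

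**Figure D1:**
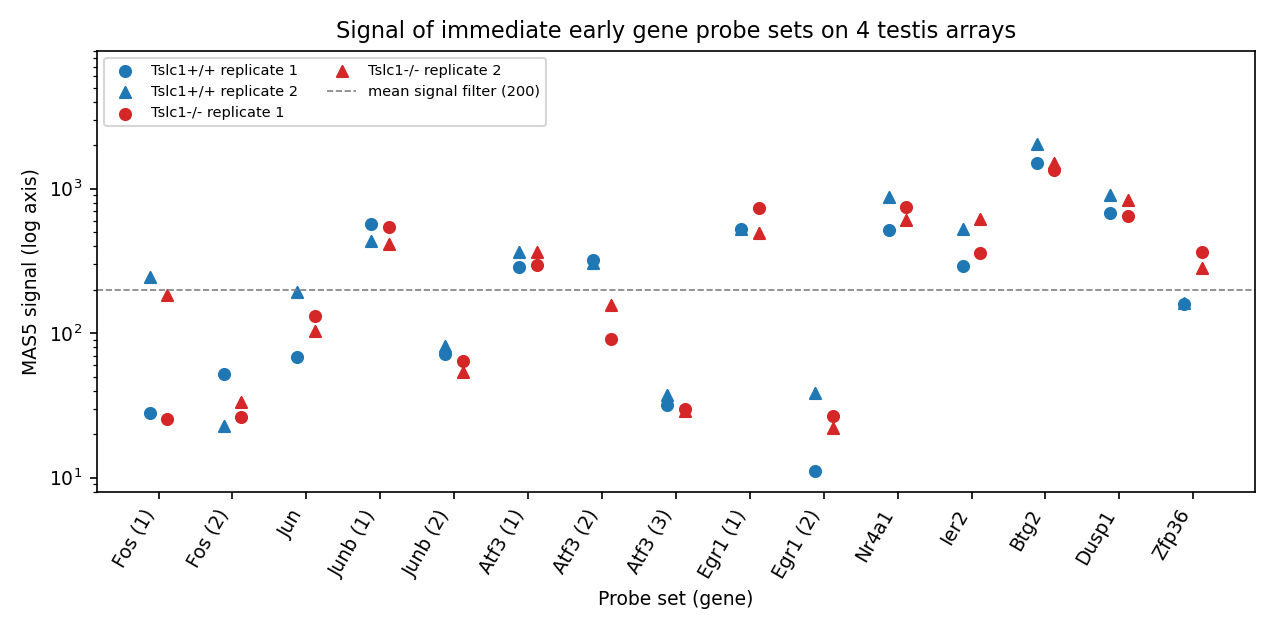
MAS5 signal (log axis) of the 15 member probe sets on each of the 4 arrays; circles are replicate 1, triangles replicate 2, blue Tslc1+/+ and red Tslc1-/-, numbered by falling mean signal within a gene. The first Fos probe set reads 25.6 to 27.9 on the replicate 1 arrays and 183 to 243.4 on the replicate 2 arrays; signals of different probe sets are not comparable as transcript levels.

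No immediate early gene passed the test between genotypes. Of the 10 genes, 8 had a tested probe set, 9 probe sets in all, and 0 of these 9 were called (limma, adjusted p from 0.651 to 0.998), while 1.08% of all 7975 tested probe sets were (0.238% higher and 0.840% lower in Tslc1-/-). At an unadjusted p under 0.05 the count was also 0 of 9, with 10.0% of all tested probe sets. The arrays of the genotypes did not overlap on 2 of the 9, Zfp36 higher and the second Atf3 probe set lower in Tslc1-/-, and on 40.0% of all tested probe sets. A non-overlap of 2 arrays against 2 was therefore common. Both of these probe sets reached the mean signal of 200 only through the genotype in which they are high: Zfp36 averaged 159.5 ± 1.98 in Tslc1+/+ and 322.6 ± 57.3 in Tslc1-/-, and the second Atf3 probe set 314.4 ± 10.5 and 123.7 ± 46.2 (SD, n = 2). That filter favours probe sets with a difference, so these readings support nothing about the members. Taking the brightest tested probe set per gene, 4 genes had a positive and 4 a negative change, with a median of 0.01, and the median over all tested probe sets was 0.02. Without the signal filter 0 of 15 were called, with 0.467% of all 12422 probe sets.

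The intervals rest on array-to-array spread alone, possibly technical, so they need not bound a difference between animals of the 2 genotypes. For 6 of the 9 tested probe sets (those of Junb, Egr1, Nr4a1, Btg2 and Dusp1 and the first of Atf3) the 95% interval lay between -1 and 1 on the log2(signal + 50) scale, which corresponds to wider limits for the signal itself. On the same scale it reached 1.15 for Ier2, 2.10 for Zfp36 and -2.56 for the second Atf3 probe set. On 7 of the 9 probe sets the change between genotypes was smaller than the larger of the differences between arrays of a genotype. The exceptions were Zfp36 and the second Atf3 probe set, the same 2 that entered the test through their higher genotype. The share of all tested probe sets with such a smaller change was not counted, so the 7 of 9 describes no trait of the members.

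**Figure D2:**
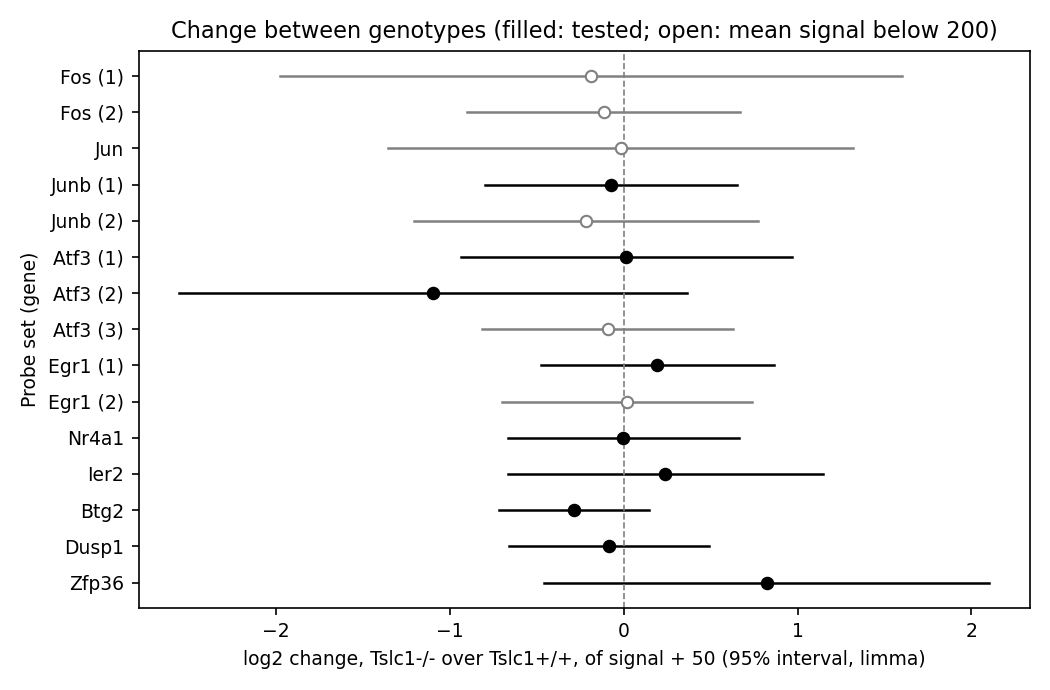
Log2 change of Tslc1-/- over Tslc1+/+ (signal plus 50) for each member probe set, with its 95% interval from limma; filled points were tested, open points had a mean signal below 200 and come from the fit without a filter. All 15 intervals include 0; the widest are those of the first Fos probe set and the second Atf3 probe set.

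Differences between arrays of the same genotype were as large as these changes. Over the 9 tested member probe sets the median difference between the arrays of a genotype was 0.34 on the log2 scale, with 0.24 over all tested probe sets. Spread falls as signal rises, and 9 of the 18 member differences were above the median of probe sets in the same signal range (0.47 for mean signals of 200 to 500 and 0.24 for 500 to 2000). That count joined 6 of 8 above the median in the 500 to 2000 range and 3 of 10 in the 200 to 500 range. In the 500 to 2000 range Nr4a1 (0.70 and 0.27 in Tslc1+/+ and Tslc1-/-) and Dusp1 (0.40 and 0.33) exceeded the median of 0.24 in both genotypes. Btg2 did so in Tslc1+/+ (0.42, with 0.16 in Tslc1-/-) and Egr1 in Tslc1-/- (0.53, with 0.01 in Tslc1+/+). The summed signal of the 8 brightest tested probe sets was 4524 and 5826 in Tslc1+/+ mice and 5036 and 5121 in Tslc1-/-, so Tslc1+/+ supplied both the lowest and the highest array.

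The arrays that share a replicate number were also compared. Of the 9 tested probe sets, 4 (Ier2, Btg2, Dusp1 and the first of Atf3) read higher on the replicate 2 array in both genotypes, with 26.8% of all tested probe sets, and 1 (Junb) read lower in both, with 25.0%. Together 5 of 9 lay on the same side in both genotypes, with 51.8% of all tested probe sets, a share near the background. Fos, below the filter, showed the largest such difference among the members, at 1.91 in Tslc1+/+ against 1.62 in Tslc1-/- on the log2 scale. Of the 4447 probe sets with a mean signal below 200, 0.247% differed at least that much (1.62 or more) in the same direction in both genotypes. The labels do not say what a shared replicate number stands for, and this pattern was picked out after the values were seen.

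**Figure D3:**
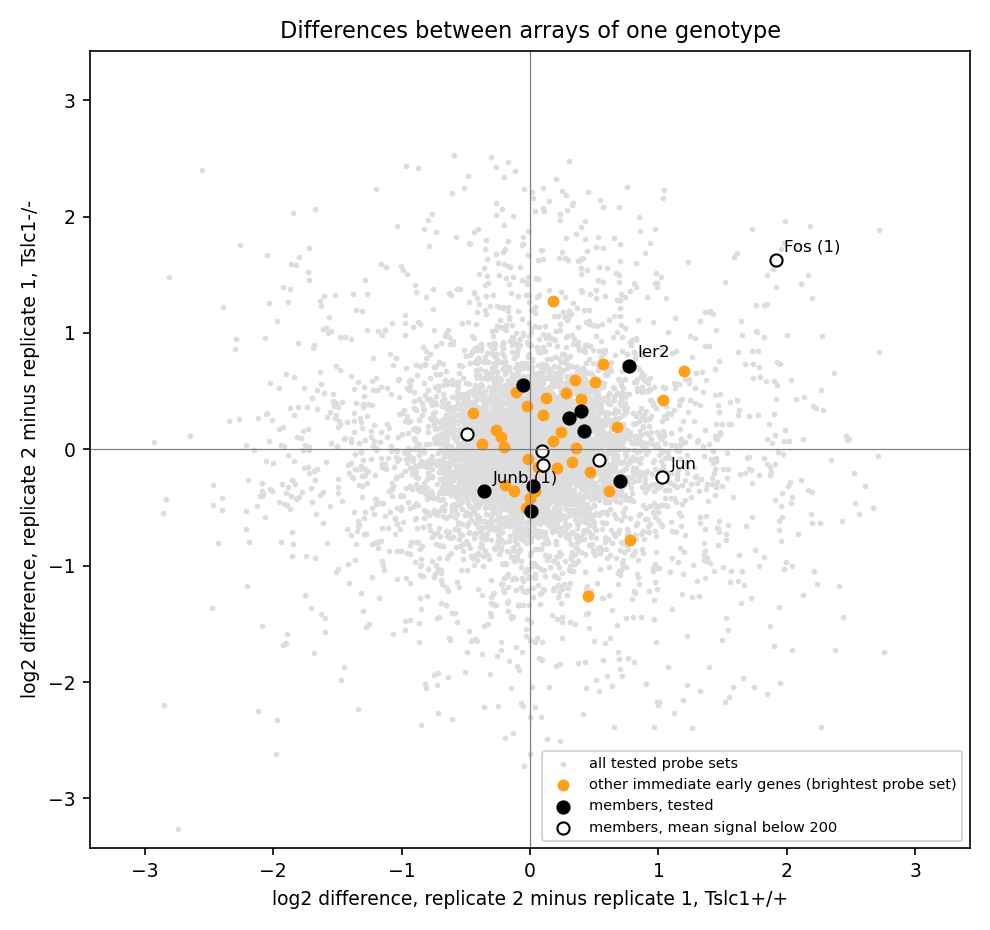
Log2 difference between replicate 2 and replicate 1 in Tslc1+/+ (x axis) and Tslc1-/- (y axis); grey points are all tested probe sets, orange points other immediate early genes, filled and open black circles the tested and dim members. The first Fos probe set lies at 1.91 and 1.62, Ier2 at 0.77 and 0.72, and Junb at -0.36 and -0.36.

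A wider group of 56 rapidly induced genes, of which 46 had a probe set of their own and 34 were tested, gave the same count between genotypes. None of the 34 rose or fell (limma), none had an unadjusted p under 0.05, and their median change was 0.06. The genotypes did not overlap for 8 of the 34, with 40.0% of all tested probe sets. The smallest p was that of Plk3, a polo-like kinase of the stress response, which read 19529.7 and 16943.7 in Tslc1+/+ mice and 15961 and 16159.4 in Tslc1-/-, a change of -0.18 (limma, adjusted p = 0.585). The genotypes did not overlap for Plk3, but the distance between them was smaller than that within Tslc1+/+. Its probe set carries a cross-hybridisation suffix. Jund, the AP-1 member that many tissues express without a stimulus, read 16455.5 and 16461.2 in Tslc1+/+ against 20830.2 and 15574.1 in Tslc1-/-, so the Tslc1-/- arrays enclosed the Tslc1+/+ pair (change 0.13, limma, adjusted p = 0.790).

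In this wider group the arrays sharing a replicate number differed in the same direction for 18 of 34 genes (52.9%), near the 51.8% of all tested probe sets. Of the 34 genes, 14 (41.2%) read higher on the replicate 2 array in both genotypes, with 26.8% of all tested probe sets, and 4 (11.8%) read lower in both, with 25.0%; this split of directions was not tested. The 3 Fos relatives on the array were among the 14. Fosb read 522.8 and 797.2 in Tslc1+/+ mice and 617.1 and 1060.3 in Tslc1-/-. Fosl1 read 207 and 277.3, then 186.5 and 306.3, and Fosl2 read 205.5 and 260.5, then 282.5 and 416.2. In each of the 3 the replicate 2 array was the higher in its genotype, and only for Fosl2 did the genotypes not overlap. Sgk1, a kinase induced by hormones, read 184.1 and 487 in Tslc1+/+ against 245.8 and 421.2 in Tslc1-/-, and Hbegf, a growth factor of the EGF family, read 451.3 and 662.8, then 357.3 and 558.8. These genes were named after their values were seen. Relatives of the feedback genes did not share 1 direction: Zfp36l1 read higher on both replicate 2 arrays, while Zfp36l2 read lower on both and Dusp2 and Dusp6 differed in opposite directions in the 2 genotypes. The other 12 genes with a probe set of their own had mean signals below 200. They included Egr2 (37 to 258.7 over the arrays), Myc (13.6 to 78.1) and Ptgs2 (13 to 24.3).

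The kinases and transcription factors that act on immediate early promoters were listed as 40 genes, of which 25 had a probe set of their own and 18 were tested. None rose or fell (limma), 2 had an unadjusted p under 0.05, with 10.0% of all tested probe sets, and the median change was 0.06. Nras, a small GTPase at the head of the ERK cascade, read 2362.7 and 2465.3 in Tslc1+/+ mice and 3333 and 3612.1 in Tslc1-/-. Both Tslc1-/- arrays were higher, with a change of 0.51 (95% interval 0.21 to 0.82), and the adjusted p was 0.144 (limma). Map2k3, a kinase that activates p38, read 3643.6 and 3671.3, then 4644.3 and 4143.4, a change of 0.26 (limma, adjusted p = 0.533), on a probe set with a cross-hybridisation suffix. The genotypes did not overlap for 9 of the 18 genes, 7 higher and 2 lower in Tslc1-/-, with 21.5% and 18.5% of all tested probe sets. Araf, counted among the lower, averaged 327.6 in Tslc1+/+ and 113.3 in Tslc1-/-. It reached the filter level only through Tslc1+/+, so its reading supports nothing. Crem and Creb1, which bind cyclic AMP response elements, overlapped between genotypes with changes of -0.08 and -0.07 (limma, adjusted p = 0.965 and 0.969). Their probe sets also carry a cross-hybridisation suffix.

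Heat shock and stress genes, which can rise with the same stimuli, were tested for 15 of 18 genes. None rose or fell (limma), 3 had an unadjusted p under 0.05, with 10.0% of all tested probe sets, and the median change was 0.02. Dnajb1, a co-chaperone, read 4667.2 and 5223.3 in Tslc1+/+ against 6196.5 and 6259.4 in Tslc1-/-, higher on both Tslc1-/- arrays with a change of 0.33 (limma, adjusted p = 0.303). Hsp90aa1, a stress-inducible chaperone, read 41763.2 and 44289.4, then 39330.8 and 35920.9, lower on both with a change of -0.19 (limma, adjusted p = 0.422). Of the 15, 4 read higher and 3 lower on the replicate 2 array in both genotypes, with 26.8% and 25.0% of all tested probe sets.

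**Figure D4:**
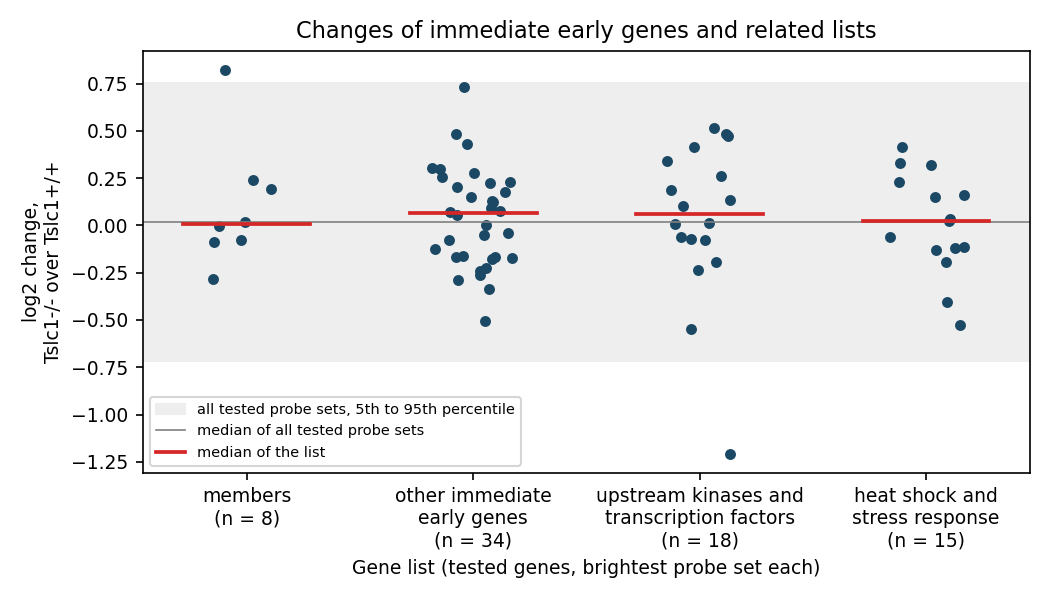
Log2 change of Tslc1-/- over Tslc1+/+ for each tested gene (points, brightest probe set) of the members and the 3 related lists, with the median of each list as a red line. The grey band spans the 5th to 95th percentile of all 7975 tested probe sets, and the list medians of 0.01, 0.06, 0.06 and 0.02 lie near the overall median of 0.02.

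Among tested probe sets of other genes, the 3 whose pattern over the 4 arrays was nearest to the second Atf3 probe set, the member with the smallest p, were those of Cyp4a14, Atp5d and Selenok, at Euclidean distances of 0.18, 0.18 and 0.21 between log2 profiles centred on their means. Over only 4 arrays such nearness says nothing of shared function or control.

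For the series as a whole, array medians ran from 361.5 to 378 and log2 signals of any pair of arrays correlated with r from 0.923 to 0.938 across tested probe sets, which are not independent replicates. Cadm1 was lower on both Tslc1-/- arrays on each of its 3 probe sets, the 2 tested ones passing with changes of -3.01 and -2.36 (limma, adjusted p = 2.31e-05 and 1.83e-04). These and all other calls need the intensity trend in the spread estimate, since 0 probe sets were called without it. Among testis markers, the 8 elongating spermatid genes summed to 427365 and 439918 in Tslc1+/+ and to 313495 and 293886 in Tslc1-/-, and 4 of them fell. Of 5 tested spermatocyte genes 1 fell, and none passed of 5 spermatogonial, 9 Sertoli, 7 Leydig, 6 peritubular myoid, 8 macrophage, 3 endothelial and 2 erythrocyte genes (limma). The summed endothelial signal was 2020 and 2306 in Tslc1+/+ mice and 1309 and 1370 in Tslc1-/-, from 3 tested genes of 7, of which Eng had a change of 0.11 in the other direction. Another, Pecam1, averaged 799 in Tslc1+/+ and 181.1 in Tslc1-/-, so it reached the filter level only through Tslc1+/+. The lower endothelial sum therefore supports nothing about endothelial cells. The Leydig sum was 15075 and 15228, then 12793 and 14405. Of the 7 tested Leydig genes, 3 had a positive and 4 a negative change. The erythrocyte sum was 1864 and 2173, then 2491 and 2352. Its 2 genes changed in opposite directions (Hba-a1 0.75 and Alas2 -0.53). The spermatogonial sum was 8988 and 9476, then 8350 and 8639. Of its 5 tested genes only Dazl, the brightest, had a negative change (-0.36), and the other 4 had a positive one. Among these 4, Stra8 averaged 127.3 in Tslc1+/+ and 445 in Tslc1-/-, so it reached the filter level only through Tslc1-/-. These 5 sums (spermatid, endothelial, Leydig, erythrocyte and spermatogonial) did not overlap between genotypes, while the spermatocyte, Sertoli, peritubular myoid and macrophage sums did. The sum of the upstream list (17311 and 17711, then 20658 and 20174) did not overlap either. Nor did that of the heat shock list (108723 and 109113, then 104413 and 104646). Among single tested probe sets, 40.0% did not overlap. On the replicate 2 arrays, 5 of 8 macrophage and 5 of 9 Sertoli markers read lower in both genotypes and 0 read higher in both, with 25.0% and 26.8% of all tested probe sets. These lists were picked after the values were seen. Higher and lower counts were 3 and 3 for spermatid, 2 and 0 for spermatocyte, and 2 and 0 for spermatogonial markers. They were 2 and 1 for Leydig, 0 and 0 for myoid, 0 and 1 for endothelial, and 1 and 0 for erythrocyte markers. The macrophage sum was 5916 and 5436, then 7232 and 5326, and the Sertoli sum 25937 and 25168, then 27408 and 25280. The part of these markers in the values of the immediate early genes was not tested.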

How the data were processed

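Testis RNA was compared on 2 Tslc1+/+ and 2 Tslc1-/- arrays. The values as deposited are linear intensity per probe set. Per the labels, the authors used Microarray Suite 5.0 and global scaling of every array to a target of 1000, so a change in total RNA cannot be seen. Probe-level data and detection calls were not used here. After removal of 66 controls from 12488 probe sets, 12422 remained: 10833 name 1 gene, 396 several and 1193 none. By Entrez identifier, 10817 matched RefSeq (GRCm38.p6). Log2(signal + 50) was tested over the 7975 probe sets with a mean signal of at least 200, with limma 3.58.1 in R 4.3.3 (intensity trend, two-sided, Benjamini-Hochberg over all tested, threshold 0.05). The same fit was run on 20 simulated data sets. For probe sets with a signal below 2000 it recovered 33.5% of log2 changes of 1 and 3.65% of changes of 0.5. Of all its calls, 6.79% were false. A gene is represented by its brightest tested probe set. With 2 arrays per genotype, a permutation test cannot give a two-sided p under 0.333. Named genes are all members, Cadm1, the 3 genes most like the member of smallest p, and from the related lists those that passed, that of smallest p and the brightest; others were chosen after their values were seen, and of the marker lists counts and sums are given. The members and lists were chosen with earlier results of these data known. Alternatives covered normalization, pseudocount, signal filter, trend, suffixes, replicate block and each array left out.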

Additional observations from a re-analysis of the deposited data

How the results depend on the processing

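The count of 0 called member genes held under all 14 alternatives that were run, with member probe sets at adjusted p of 0.498 or more (limma). The members' median change ran from -0.14 (without Tslc1+/+ replicate 1) to 0.18 (without Tslc1+/+ replicate 2). Without the intensity trend 0 of 7975 probe sets were called, and 37 to 43 with 1 array left out (from 37 without Tslc1+/+ replicate 2 to 43 without Tslc1-/- replicate 2), against 86 in the main analysis; the cause was not tested. With replicate number as a block the count was 239, and Nras was the 1 upstream gene called (adjusted p = 0.0486), while no member was. The labels do not say that a number pairs samples, and over all tested probe sets deviations of same-numbered arrays correlated with r = -0.0012; single genes such as Fos and Ier2 did differ alike, and whether the numbers mark a shared source was not tested. With 1 array left out, changes ran from -0.25 to 0.11 for Junb, -0.14 to 0.17 for the first Atf3 probe set, -0.074 to 0.46 for Egr1, -0.35 to 0.35 for Nr4a1, -0.15 to 0.62 for Ier2 and -0.28 to 0.11 for Dusp1, and kept their sign for Btg2 (-0.50 without Tslc1+/+ replicate 1 to -0.072 without Tslc1+/+ replicate 2), Zfp36 (0.66 to 0.98) and the second Atf3 probe set (-1.37 to -0.82). At a mean signal of at least 500 only 4 member genes could be tested, and 5 without suffixed probe sets. Where an alternative left a genotype with 1 array, that array was assumed to vary like the others.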
